A study of Rattus norvegicus with 9 samples.

Results

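The genes described here are 34 glycolytic enzymes, their regulators and hypoxia response genes, taken by symbol from the deposited gene table of 22050 genes. They comprise 18 glycolytic enzymes, 3 genes of glucose or lactate transport and the pyruvate switch, 2 genes for the hypoxia-inducible factors themselves, and 11 other targets of these factors. A row was found for 33 of them, every one except Gapdh, and 31 had enough counts to be tested among the 11473 genes tested in all. Epas1 and Slc16a3 did not pass the filter on low counts.

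Glycolysis splits glucose into pyruvate, and lactate dehydrogenase then turns pyruvate into lactate. Hypoxia-inducible factor 1 (HIF-1) is a transcription factor whose α subunit is hydroxylated by the PHD oxygenases and destroyed when oxygen is plentiful; when oxygen is scarce it persists and switches on most glycolytic enzymes, the glucose transporter Slc2a1 and genes such as Ca9 and Vegfa. Fibroblasts exposed to TGF-β1 are known to raise glycolysis as they become matrix-producing myofibroblasts.

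RNA-seq was performed on NRK-49F, an established line of rat renal fibroblasts labelled as wild type. The 9 libraries fall into 3 groups of 3, which are TGF-β1 plus YEXX-2A, TGF-β1 plus YWCH-4A and TGF-β1 plus vehicle, so every group carried TGF-β1, with an incubation of 48 h. The labels give no dose, timing or structure for either compound, and no group without the cytokine is described here. The series states 3 biological replicates per condition of this single line, without saying how the cultures were kept apart, so each test weighs a difference against the spread of these 9 libraries alone.

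Total estimated counts ran from 13675868 to 21923715 per library. Vehicle replicate 2 stood apart: on the main axis of variation within groups it scored 51.3, against -25.8 to 6.0 for the other 8 libraries. The biological coefficient of variation was 7.39% among YEXX-2A libraries, 3.66% among YWCH-4A libraries and 16.7% among vehicle libraries, or 4.68% among vehicle libraries without replicate 2. That library was the highest vehicle library for 15 of 17 glycolytic enzymes and the lowest for 1. Of 11 other HIF targets it was the highest for 4 and the lowest for 5. The shares over all tested genes are not given here, so these counts have no background beside them. Values without that library are given where a result for the listed genes rests on it. On the CPM scale, which divides counts by library size, summed fibroblast markers stood at 32370 to 35620 CPM with YEXX-2A, 10670 to 11590 CPM with YWCH-4A and 43010 to 55930 CPM with vehicle. Most of that sum was the collagen transcript Col1a1, which averaged 21960 CPM with YEXX-2A, 6464 CPM with YWCH-4A and 32190 CPM with vehicle. Of 7 fibroblast markers tested, 4 fell and none rose with YEXX-2A, and 3 fell with YWCH-4A while Pdgfra rose (1.62-fold, adjusted p = 7.25e-05). The share called was 57.1% in each comparison, against 36.1% of all tested genes with YEXX-2A and 30.6% with YWCH-4A. Thy1 and Dcn, also on the list, stayed under 1 CPM in every library and were not tested. Of 10 kidney epithelial markers, 8 stayed under 1 CPM in every library, among them Cdh1, Epcam and Umod, although Krt8 reached 896 CPM or more in each. The epithelial sum was 1516 to 1602 CPM with YEXX-2A, 916 to 965 CPM with YWCH-4A and 1785 to 2299 CPM with vehicle. Endothelial markers summed to 28.9 to 34.5 CPM with YEXX-2A, 18.8 to 20.1 CPM with YWCH-4A and 31.4 to 38.2 CPM with vehicle. Most of that was Egfl7, which averaged 22.6 CPM with YEXX-2A, 13.3 CPM with YWCH-4A and 28.4 CPM with vehicle. Of 7 endothelial markers, 4 stayed under 1 CPM in every library, among them Kdr. Erg rose with YEXX-2A (2.17-fold, adjusted p = 0.0103) and Vwf with YWCH-4A (1.94-fold, adjusted p = 0.0456). Egfl7 fell with YWCH-4A, to 0.468 of the vehicle level (adjusted p = 6.16e-05). Leukocyte markers summed to 41.8 to 45.5 CPM with YEXX-2A, 66.2 to 73.7 CPM with YWCH-4A and 47.5 to 62.9 CPM with vehicle, and nearly all of that was Cd68, while Ptprc stayed under 0.1 CPM. Mitochondrially encoded genes took 2.30 to 2.66% of counts with YEXX-2A, 1.88 to 2.00% with YWCH-4A and 1.43 to 2.04% with vehicle. The part of these levels in the results below was not tested, and in such bulk samples fewer cells of a kind cannot be told apart from less RNA per cell.

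Glycolytic enzymes were lower with YEXX-2A than with vehicle. Of 17 tested, 15 fell and none rose, at an adjusted p under 0.05 in the quasi-likelihood test of edgeR across all genes. Over all tested genes, 36.1% were called, 18.5% lower and 17.6% higher. The median log2 fold change was -0.58 for the enzymes, with a range of -0.96 to -0.18, beside 0.01 for all tested genes. Without vehicle replicate 2 the count stayed at 15 lower and the median was -0.49, and 35.1% of all genes were called. With each library's score on the main axis as a covariate, 14 were lower and the median was -0.37, and 20.3% of all genes were called. Pfkp and the weakly expressed Aldoc were not called.

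Glycolytic enzymes were also lower with YWCH-4A, where 14 of 17 fell and none rose. Over all tested genes, 30.6% were called in that comparison, 14.9% lower and 15.7% higher. The median log2 fold change was -0.54 for the enzymes, beside 0.03 for all tested genes, and the enzymes ran from -1.78 to -0.10. Without vehicle replicate 2, 14 fell and the median was -0.43, and 39.4% of all genes were called. Pfkm, Pfkfb4 and Eno2 were not called. Both comparisons use the same 3 vehicle libraries and are not independent of each other.

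**Figure D1:**
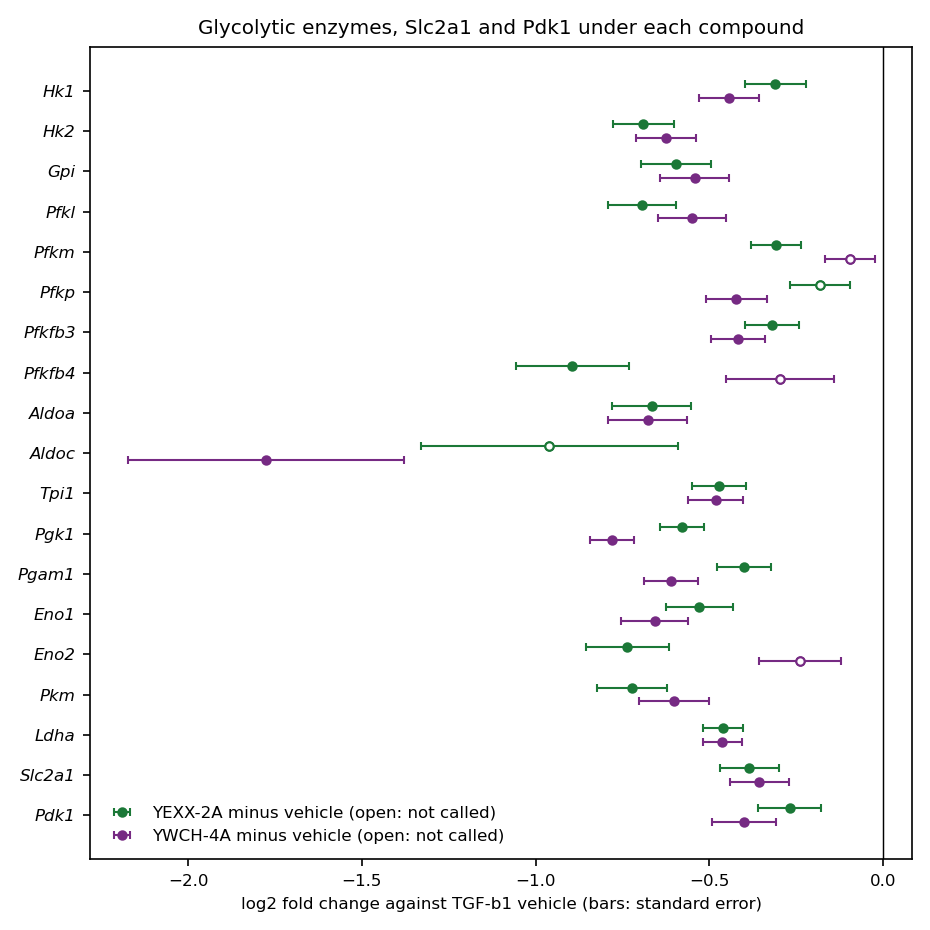
Log2 fold change against TGF-β1 vehicle (horizontal axis; bars, standard error) of 17 glycolytic enzymes, Slc2a1 and Pdk1, in pathway order from top to bottom, with YEXX-2A in green above YWCH-4A in purple and open points for adjusted p of 0.05 or more. Every point lies left of 0; Aldoc has the widest bars and the lowest value, -1.78 with YWCH-4A.

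The pathway opens with the trapping of glucose by hexokinase and its conversion to fructose 6-phosphate. Hk2, the inducible hexokinase, had 101, 111 and 115 CPM with YEXX-2A, 116, 107 and 118 CPM with YWCH-4A and 158, 196 and 173 CPM with vehicle. Every library of either compound lay below every vehicle library. Hk2 fell to 0.62 of the vehicle level with YEXX-2A (log2 fold change -0.69, SE 0.09, adjusted p = 0.00116) and to 0.648 of it with YWCH-4A (log2 fold change -0.62, SE 0.09, adjusted p = 0.000327). Hk1, the widely expressed hexokinase, stood at 108, 92.3 and 105 CPM with YEXX-2A, 96.0, 89.3 and 92.8 CPM with YWCH-4A and 120.5, 141 and 117 CPM with vehicle. Neither compound overlapped vehicle, and the fall was smaller than that of Hk2, with log2 fold changes of -0.31 (adjusted p = 0.0232) and -0.44 (adjusted p = 0.00301). Without YEXX-2A replicate 2, the YEXX-2A change of Hk1 was -0.25 with an adjusted p of 0.102. Gpi, which isomerises glucose 6-phosphate, averaged 454 ± 33.5 CPM with YEXX-2A, 471 ± 13.9 CPM with YWCH-4A and 686 ± 106 CPM with vehicle (SD, n = 3 each). Gpi fell with YEXX-2A (log2 fold change -0.60, adjusted p = 0.00382) and YWCH-4A (-0.54, adjusted p = 0.00214).

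Phosphofructokinase sets the pace of the pathway and comes from 3 genes, which behaved differently. Pfkl, the liver type, had 161, 155 and 169 CPM with YEXX-2A, 181, 175 and 180.4 CPM with YWCH-4A and 239.6, 310.4 and 235 CPM with vehicle. All libraries of both compounds were below all vehicle libraries (log2 fold change -0.69, SE 0.10, adjusted p = 0.00198 for YEXX-2A; log2 fold change -0.55, SE 0.10, adjusted p = 0.0017 for YWCH-4A). Pfkm, the muscle type, had 120.5, 111 and 128 CPM with YEXX-2A, 140.5, 136 and 139 CPM with YWCH-4A and 142, 159.6 and 142 CPM with vehicle. It fell with YEXX-2A (log2 fold change -0.31, SE 0.07, adjusted p = 0.0135), a call that was lost without YEXX-2A replicate 2 (-0.26, adjusted p = 0.0674). With YWCH-4A its change was -0.10 (adjusted p = 0.342). Pfkp, the platelet type, had 89.5, 83.1 and 95.6 CPM with YEXX-2A, 78.9, 73.0 and 74.8 CPM with YWCH-4A and 95.6, 114 and 94.6 CPM with vehicle. YEXX-2A libraries overlapped vehicle libraries for Pfkp (-0.18, adjusted p = 0.115), and YWCH-4A libraries lay below them (log2 fold change -0.42, SE 0.09, adjusted p = 0.00394).

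Per length, in FPKM (fragments scaled to gene length and library size), the makeup of the phosphofructokinase transcripts differed between the groups. Pfkl made up 41.2, 42.2 and 40.9 percent of their summed FPKM with YEXX-2A, 43.3, 43.7 and 43.9 percent with YWCH-4A and 48.0, 51.0 and 47.7 percent with vehicle. Both compounds were below vehicle with no overlap. Pfkm made up 30.8, 30.2 and 30.9 percent with YEXX-2A, 33.6, 34.0 and 33.9 percent with YWCH-4A and 28.5, 26.2 and 28.9 percent with vehicle. Pfkp made up 28.0, 27.7 and 28.3 percent with YEXX-2A, 23.1, 22.3 and 22.3 percent with YWCH-4A and 23.4, 22.8 and 23.5 percent with vehicle. The Pfkm share was above vehicle with both compounds and highest with YWCH-4A, whereas the Pfkp share was above vehicle with YEXX-2A alone. These shares were not tested: 3 libraries against 3 cannot go below p = 0.1 in a two-sided exact permutation test.

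**Figure D2:**
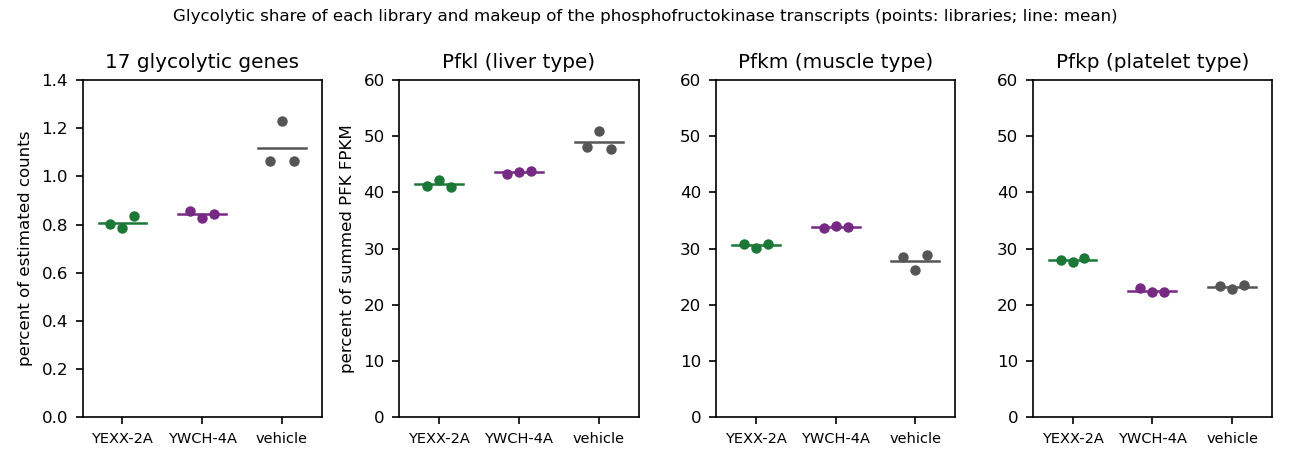
Left, the 17 listed glycolytic genes as a percent of all estimated counts in each library; right, each phosphofructokinase gene as a percent of the summed FPKM of Pfkl, Pfkm and Pfkp (points, libraries 1 to 3; line, group mean). The glycolytic share lies at 0.784 to 0.834% with YEXX-2A, 0.826 to 0.855% with YWCH-4A and 1.06 to 1.23% with vehicle.

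The PFKFB enzymes make fructose 2,6-bisphosphate, the strongest activator of phosphofructokinase. Pfkfb3 stood at 31.8, 31.7 and 29.8 CPM with YEXX-2A, 30.2, 28.9 and 28.1 CPM with YWCH-4A and 37.2, 38.2 and 41.2 CPM with vehicle. It fell with YEXX-2A (log2 fold change -0.32, SE 0.08, adjusted p = 0.0153) and also with YWCH-4A (log2 fold change -0.42, SE 0.08, adjusted p = 0.00229); without YEXX-2A replicate 2 the YEXX-2A change was -0.34 with an adjusted p of 0.0522. Pfkfb4 was lower in abundance, at 5.32, 4.73 and 5.70 CPM with YEXX-2A, 8.87, 7.21 and 7.63 CPM with YWCH-4A and 10.2, 11.2 and 7.80 CPM with vehicle. It fell with YEXX-2A to 0.538 of the vehicle level (log2 fold change -0.89, SE 0.16, adjusted p = 0.00517). With YWCH-4A its libraries overlapped those of vehicle (-0.30, adjusted p = 0.178), and without vehicle replicate 3 the change was -0.43 with an adjusted p of 0.0473.

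Among enzymes with a row under their own symbol, the transcripts highest per length were those of Eno1, Pkm and Aldoa. The GAPDH models are not in this order. In vehicle cells Eno1 averaged 1260 ± 138 FPKM, Pkm 1242 ± 153, Aldoa 979 ± 153, Pgam1 739 ± 46.8, Tpi1 609 ± 38.4, Ldha 596 ± 43.4, Pgk1 387 ± 11.1 and Gpi 319 ± 35.4 (SD, n = 3). In that order, Eno1 and Pkm overlapped across vehicle libraries, as did Pkm and Aldoa, and Tpi1 and Ldha, while the other neighbours were separate.

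Aldoa, the aldolase of most tissues, which cleaves the sugar into its triose phosphates, had 937, 929.8 and 969 CPM with YEXX-2A, 928, 914 and 972 CPM with YWCH-4A and 1315, 1847 and 1335 CPM with vehicle. Vehicle replicate 2 was far above the other vehicle libraries, yet all of these were above both compounds. Aldoa fell with YEXX-2A (log2 fold change -0.67, SE 0.11, adjusted p = 0.00402) and YWCH-4A (log2 fold change -0.68, SE 0.11, adjusted p = 0.00119), and these changes were -0.49 and -0.50 without vehicle replicate 2. Aldoc, the brain-type aldolase, had 8 to 41 counts per library. It had a log2 fold change of -0.96 with YEXX-2A (adjusted p = 0.0616) and fell with YWCH-4A (log2 fold change -1.78, SE 0.40, adjusted p = 0.00642). Without vehicle replicate 2 these values were -0.49 and -1.31, and without vehicle replicate 3 the YEXX-2A value was -1.18 with an adjusted p of 0.0323. Tpi1, which interconverts the triose phosphates, averaged 676 ± 32.0 CPM with YEXX-2A, 670.4 ± 10.5 CPM with YWCH-4A and 937 ± 99.9 CPM with vehicle (SD, n = 3 each). It fell by almost the same amount with each, at -0.47 (adjusted p = 0.00353) and -0.48 (adjusted p = 0.000862).

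Gapdh, which oxidises glyceraldehyde 3-phosphate, had no row under its own symbol. The table held 25 gene models described as this enzyme, and 2 of them, both named LOC108351137, held 99.75% of the counts of all 25. Reads can be split between such near-identical copies, so the 2 were summed, a choice made after the table was seen. The sum was 2981, 2940 and 3139 CPM with YEXX-2A, 2899, 2869 and 2935 CPM with YWCH-4A and 3913, 4684 and 3856 CPM with vehicle. Both compounds were below vehicle in every library. The log2 fold change was -0.46 with YEXX-2A (SE 0.08, adjusted p = 0.00418) and -0.52 with YWCH-4A (SE 0.08, adjusted p = 0.000634), or -0.36 and -0.42 without vehicle replicate 2. A transcript often used as a constant reference in such cells was lower with either compound.

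Pgk1, which makes the first ATP of the pathway, had 460.3, 458 and 481 CPM with YEXX-2A, 410.0, 400.0 and 408 CPM with YWCH-4A and 654, 749 and 687 CPM with vehicle. The 3 groups did not overlap, with YWCH-4A lowest. It fell to 0.67 of the vehicle level with YEXX-2A (log2 fold change -0.58, SE 0.06, adjusted p = 0.00053) and to 0.583 of it with YWCH-4A (log2 fold change -0.78, SE 0.06, adjusted p = 5.37e-06). Pgam1, the phosphoglycerate mutase, had 1017, 1010 and 1086 CPM with YEXX-2A, 905, 880.0 and 907 CPM with YWCH-4A and 1261, 1536 and 1312 CPM with vehicle. It too was lowest with YWCH-4A in every library and fell with both, at -0.40 (adjusted p = 0.00663) and -0.61 (adjusted p = 0.000165).

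Enolase makes phosphoenolpyruvate, and its 2 genes in the list diverged. Eno1, the ubiquitous form, had 1596, 1541 and 1692 CPM with YEXX-2A, 1504, 1433 and 1482 CPM with YWCH-4A and 2130, 2734 and 2106 CPM with vehicle. It fell with YEXX-2A (log2 fold change -0.53, SE 0.10, adjusted p = 0.00526) and also with YWCH-4A (log2 fold change -0.66, SE 0.10, adjusted p = 0.000461). Eno2, the neuron-specific form, had 78.0, 71.1 and 79.1 CPM with YEXX-2A, 106, 103 and 112 CPM with YWCH-4A and 107, 155 and 118 CPM with vehicle. YEXX-2A was lowest, and YWCH-4A overlapped vehicle. Eno2 fell with YEXX-2A (log2 fold change -0.74, SE 0.12, adjusted p = 0.00339), while its YWCH-4A change was -0.24 (adjusted p = 0.154), or -0.35 (adjusted p = 0.0457) without vehicle replicate 1 and -0.07 (adjusted p = 0.403) without vehicle replicate 2. Per length, Eno2 made up 3.64, 3.44 and 3.48 percent of the summed Eno1 and Eno2 FPKM with YEXX-2A, 5.19, 5.28 and 5.52 percent with YWCH-4A and 3.74, 4.20 and 4.14 percent with vehicle.

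Pkm, pyruvate kinase, had 1472, 1406 and 1512 CPM with YEXX-2A, 1635, 1536 and 1602 CPM with YWCH-4A and 2193, 2874 and 2173 CPM with vehicle. It fell to 0.606 of the vehicle level with YEXX-2A (log2 fold change -0.72, SE 0.10, adjusted p = 0.00186) and to 0.659 of it with YWCH-4A (log2 fold change -0.60, SE 0.10, adjusted p = 0.00113). The gene-level values do not separate its M1 and M2 splice forms. Ldha, which turns pyruvate into lactate, had 707, 727 and 768 CPM with YEXX-2A, 736, 728 and 736 CPM with YWCH-4A and 1015, 972 and 1043 CPM with vehicle. Among the 17 enzymes it was the only one for which vehicle replicate 2 was the lowest vehicle library, and still no compound library reached it. Ldha fell with YEXX-2A (log2 fold change -0.46, SE 0.06, adjusted p = 0.00107) and YWCH-4A (log2 fold change -0.46, SE 0.06, adjusted p = 0.000142). Estimated counts of Pfkfb4, Tpi1, Eno1, Eno2 and Pkm were not whole in 7 to 9 libraries, so some of their reads were shared with other gene models.

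Both tested genes of the flanking steps also fell. Slc2a1, the GLUT1 glucose importer, had 143, 132 and 135 CPM with YEXX-2A, 135, 138 and 146 CPM with YWCH-4A and 169.8, 204 and 163 CPM with vehicle. Each compound library was below each vehicle library. It fell with YEXX-2A (log2 fold change -0.39, SE 0.09, adjusted p = 0.0107) and also with YWCH-4A (log2 fold change -0.36, SE 0.09, adjusted p = 0.00895); without YEXX-2A replicate 2 the YEXX-2A change was -0.37 with an adjusted p of 0.0546. Pdk1, the kinase that keeps pyruvate out of the mitochondrial dehydrogenase, had 27.1, 29.9 and 32.1 CPM with YEXX-2A, 27.4, 28.5 and 25.3 CPM with YWCH-4A and 36.8, 33.6 and 36.8 CPM with vehicle. It fell with YWCH-4A (log2 fold change -0.40, SE 0.09, adjusted p = 0.00721) and, close to the threshold, with YEXX-2A (log2 fold change -0.27, SE 0.09, adjusted p = 0.0429). The YEXX-2A call was lost when any library other than vehicle replicate 2 or YEXX-2A replicate 3 was left out, with changes of -0.21 to -0.28 and adjusted p values of 0.0572 to 0.149. On the log2(FPKM + 1) scale, where the median of all tested genes was 0.07 with YEXX-2A and 0.18 with YWCH-4A, the changes of Pdk1 were -0.18 with YEXX-2A (adjusted p = 0.14) and -0.22 with YWCH-4A (adjusted p = 0.0761). Slc16a3, the lactate exporter MCT4, had 0 to 4 counts in each library and was not detectable above that level.

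Genes of glucose metabolism next to the listed enzymes moved in both directions. Of 24 tested out of 32, 3 fell and 2 rose with YEXX-2A, with a median log2 fold change of 0.10, and the share called (20.8%) was below the 36.1% of all tested genes. With YWCH-4A 3 fell and 3 rose, with a median of 0.10, and the share (25%) was below the 30.6% of all. Pgm2 (0.42) and the pyruvate dehydrogenase phosphatase Pdp1 (0.62) rose with YEXX-2A, with adjusted p values of 0.0257 and 0.0307. For both, vehicle replicate 2 was the lowest vehicle library. Without it, 5 of 25 tested genes of this list rose and 4 fell with YEXX-2A (36%, against 35.1% of all genes). With each library's score as a covariate, 1 of 24 rose and 2 fell (12.5%, against 20.3% of all genes). Hk3, a hexokinase of low abundance here, had 0.091, 0.356 and 0.296 CPM with YEXX-2A, 10.4, 10.3 and 10.4 CPM with YWCH-4A and 0.521, 0.951 and 0.802 CPM with vehicle. In counts these were 2, 7 and 4 with YEXX-2A, 222, 198 and 167 with YWCH-4A and 8, 12 and 11 with vehicle. Hk3 thus passed the filter on low counts only through YWCH-4A, the group where it is high, and was not tested with YEXX-2A and vehicle alone, so its levels are given without a test. It is 1 of the 3 counted above as lower with YEXX-2A and 1 of the 3 counted as higher with YWCH-4A. Ldhb, the lactate dehydrogenase subunit that favours pyruvate, had 14.5, 15.4 and 17.1 CPM with YEXX-2A, 23.7, 22.8 and 25.1 CPM with YWCH-4A and 13.5, 18.0 and 15.3 CPM with vehicle. It rose with YWCH-4A (log2 fold change 0.61, SE 0.12, adjusted p = 0.00261), as did Mpc1, a subunit of the mitochondrial pyruvate carrier (0.61, adjusted p = 0.00918). For Mpc1 as well, vehicle replicate 2 was the lowest vehicle library. Eno3, the muscle enolase, fell with YEXX-2A (-0.51, adjusted p = 0.012) and more with YWCH-4A (-1.80, adjusted p = 1.57e-06). The phosphoglucomutase Pgm1 fell with YEXX-2A (-0.32, adjusted p = 0.0194), and the ADP-dependent glucokinase Adpgk (-0.34, adjusted p = 0.0174) and Bpgm (-0.20, adjusted p = 0.022) fell with YWCH-4A.

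No change was called for Hif1a, which encodes the α subunit of HIF-1. It had 106, 118 and 94.2 CPM with YEXX-2A, 99.9, 103 and 91.2 CPM with YWCH-4A and 106, 64.0 and 116 CPM with vehicle. Vehicle replicate 2 was the lowest library, and the other 8 overlapped. The change was 0.15 with YEXX-2A (adjusted p = 0.494, 95% interval -0.24 to 0.55) and 0.04 with YWCH-4A (adjusted p = 0.888, 95% interval -0.35 to 0.43), or -0.06 and -0.18 without vehicle replicate 2. With each library's score on the main within-group axis as a covariate, Hif1a was lower with YEXX-2A (-0.27, adjusted p = 0.000338) and YWCH-4A (-0.11, adjusted p = 0.0342). That score was taken from the expression values of these same libraries, so p-values of fits that use it may be understated. Levels of the HIF-1α protein, which is the regulated step, were not measured. Epas1, which encodes HIF-2α, had 17, 18 and 0 counts with YEXX-2A, none in any YWCH-4A library, and 1, 0 and 0 counts with vehicle.

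Of 9 tested genes that dimerise with, hydroxylate or degrade HIF-α, 2 rose and 1 fell with YEXX-2A, and 1 rose and none fell with YWCH-4A. These shares, 33.3% and 11.1%, were near or below the 36.1% and 30.6% of all tested genes. The ubiquitin ligase components Eloc (0.64, adjusted p = 0.0174) and Cul2 (0.66, adjusted p = 0.022) rose with YEXX-2A. Vhl, the subunit of that ligase that binds HIF-α, fell (-0.27, adjusted p = 0.0427). Vehicle replicate 2 was the highest vehicle library for Vhl and the lowest for Eloc and Cul2. Without it, 2 of the 9 rose and none fell with YEXX-2A (22.2%, against 35.1% of all genes), so the Vhl call was lost. With each library's score as a covariate, none of the 9 was called with YEXX-2A, against 20.3% of all genes. Arnt2, an alternative partner of the α subunits, had 105, 98.8 and 105 CPM with YEXX-2A, 162, 158 and 169.8 CPM with YWCH-4A and 108, 103 and 98.3 CPM with vehicle. It rose with YWCH-4A (log2 fold change 0.66, SE 0.06, adjusted p = 1.92e-05).

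HIF binds DNA at a short core, ACGTG or GCGTG, and promoters of the listed genes were scanned for it on both strands, with overlapping matches counted. RefSeq promoter windows of build GRCr8, from 250 bases before to 50 after a gene's start, were found for 30 of the 34 genes, all but Pgk1, Ca9, Ndrg1 and Ero1a. At least 1 core stood in the window of 21 of these 30 genes (70.0%), against 44.6% of 27457 genes in the promoter table. The share was 76.5% for 17 glycolytic enzymes and 62.5% for 8 other HIF targets. These 17 include Gapdh and lack Pgk1, so they are not the 17 tested enzymes. The genes of the promoter table were not matched to the listed genes for expression or base content, so the difference in share was not tested. The 250 bases before the start are shown for 2 genes that fell with both compounds, Ldha and Pdk1, and for 2 that rose with YWCH-4A, Mxi1 and Egln3, each 5′ to 3′ on the gene's strand with cores in capitals, from RefSeq.
Ldha, chr1:106507842-106508091, plus strand: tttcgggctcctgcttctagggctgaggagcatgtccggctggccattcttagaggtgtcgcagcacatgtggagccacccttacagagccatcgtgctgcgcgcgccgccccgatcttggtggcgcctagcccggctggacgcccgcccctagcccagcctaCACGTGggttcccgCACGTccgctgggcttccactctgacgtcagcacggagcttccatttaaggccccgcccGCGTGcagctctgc
Pdk1, chr3:77113264-77113513, plus strand: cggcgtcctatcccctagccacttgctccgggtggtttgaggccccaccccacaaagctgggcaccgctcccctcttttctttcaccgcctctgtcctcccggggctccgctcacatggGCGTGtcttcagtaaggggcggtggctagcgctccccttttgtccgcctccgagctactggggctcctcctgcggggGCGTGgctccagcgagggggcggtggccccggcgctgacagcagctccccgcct
Mxi1, chr1:262348392-262348641, plus strand: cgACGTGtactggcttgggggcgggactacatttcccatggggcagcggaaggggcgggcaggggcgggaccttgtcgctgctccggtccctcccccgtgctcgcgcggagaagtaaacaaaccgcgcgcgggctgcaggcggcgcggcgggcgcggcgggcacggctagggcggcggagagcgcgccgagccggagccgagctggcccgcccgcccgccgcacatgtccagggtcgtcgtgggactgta
Egln3, chr6:77411016-77411265, minus strand: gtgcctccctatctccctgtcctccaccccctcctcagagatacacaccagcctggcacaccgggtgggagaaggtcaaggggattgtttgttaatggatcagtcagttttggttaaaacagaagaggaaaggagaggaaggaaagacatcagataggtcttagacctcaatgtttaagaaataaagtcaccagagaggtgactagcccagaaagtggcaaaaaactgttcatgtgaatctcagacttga
Ldha held 4 cores in the stretch shown, where CACGTG counts once on each strand, and 6 in its full window. Pdk1 held 2 and 4, Mxi1 1 and 1, and Egln3 none in either. These 4 are examples and no contrast of the list: Hk2, Pkm, Tpi1 and Pfkfb4, which fell with YEXX-2A, held none, while the uncalled Ankrd37, Bnip3 and Hif1a held 5, 4 and 3. A match is a run of letters and no measured binding site.

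The other HIF targets moved in both directions. With YEXX-2A, 4 of 11 tested fell and 1 rose (45.5% called, against 36.1% of all tested genes), and the median log2 fold change was -0.20. With YWCH-4A, 3 fell and 3 rose (54.5%, against 30.6% of all), and the median was -0.10. Without vehicle replicate 2, 5 fell and 1 rose with YEXX-2A (54.5%, against 35.1% of all), and 4 fell and 4 rose with YWCH-4A (72.7%, against 39.4% of all). The plot of CPM by library shows Ca9 and Egln3 farthest from vehicle, in opposite directions with YWCH-4A.

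**Figure D3:**
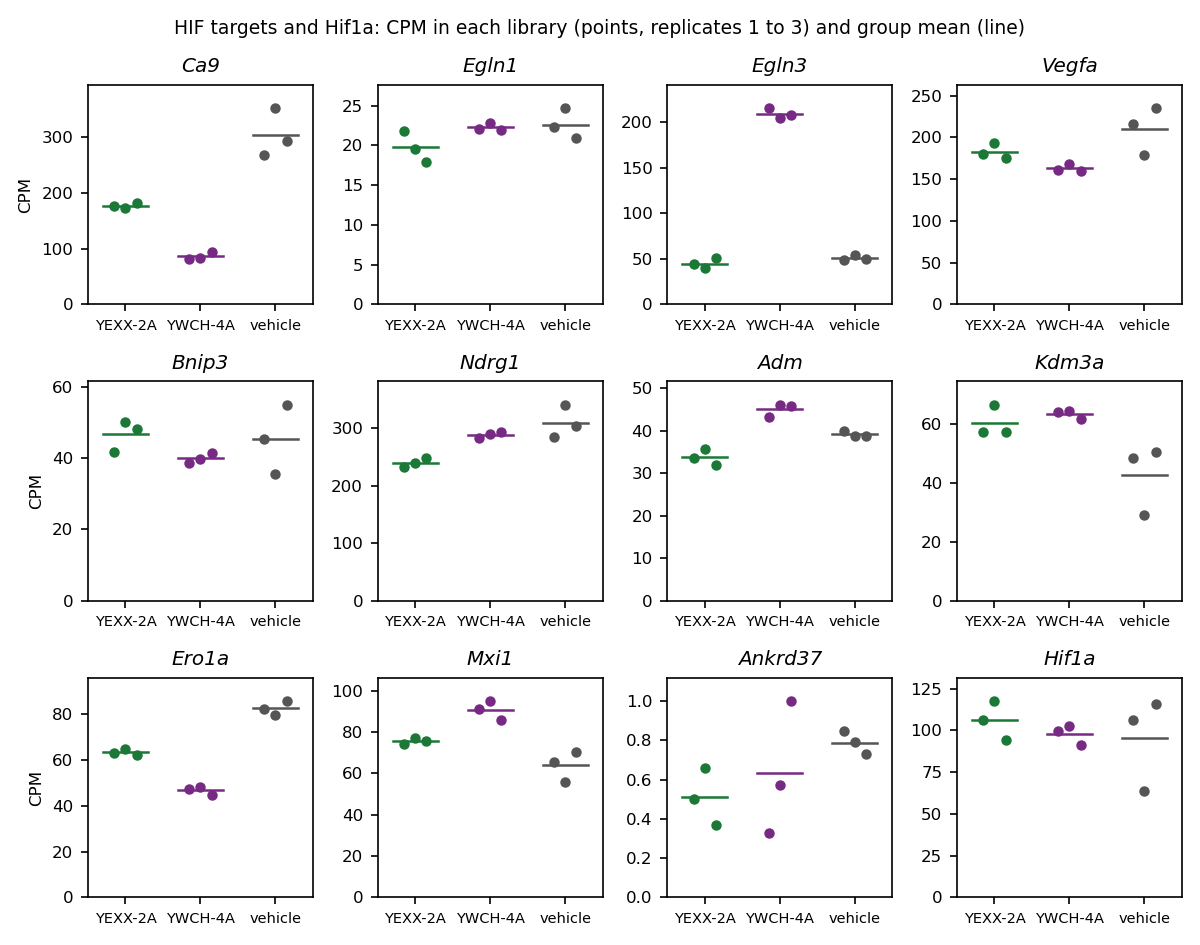
CPM (vertical axes, from 0) of the 11 other HIF targets and Hif1a in each library (points, replicates 1 to 3 from left to right; line, group mean). Egln3 lies at 205 to 216 CPM with YWCH-4A and at 39.9 to 53.9 CPM in the other 6 libraries; Ca9 is lowest with YWCH-4A, at 81.8 to 93.9 CPM, and highest with vehicle, at 267 to 352 CPM.

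Ca9, a cell-surface carbonic anhydrase and one of the most HIF-dependent genes known, had 176, 172 and 182 CPM with YEXX-2A, 81.8, 82.4 and 93.9 CPM with YWCH-4A and 267, 352 and 293 CPM with vehicle. The 3 groups were fully separate. It fell to 0.581 of the vehicle level with YEXX-2A (log2 fold change -0.78, SE 0.10, adjusted p = 0.00107) and to 0.283 of it with YWCH-4A (log2 fold change -1.82, SE 0.10, adjusted p = 3.25e-07). Ero1a, an oxidase that forms disulphide bonds in the endoplasmic reticulum, had 63.3, 65.0 and 62.4 CPM with YEXX-2A, 47.3, 48.1 and 44.8 CPM with YWCH-4A and 82.2, 79.8 and 85.8 CPM with vehicle. Its groups were also separate and in the same order, and it fell with YEXX-2A (log2 fold change -0.38, SE 0.06, adjusted p = 0.00381) and also with YWCH-4A (log2 fold change -0.82, SE 0.06, adjusted p = 4.26e-06).

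Egln3 encodes the oxygenase PHD3, which hydroxylates HIF-α and is itself induced by it. It had 43.9, 39.9 and 50.5 CPM with YEXX-2A, 216, 205 and 208 CPM with YWCH-4A and 49.3, 53.9 and 49.9 CPM with vehicle. All YWCH-4A libraries were far above all others, and YEXX-2A overlapped vehicle. It rose 4.1-fold with YWCH-4A (log2 fold change 2.04, SE 0.09, adjusted p = 5.05e-08), and its change with YEXX-2A was -0.19 (adjusted p = 0.0997), or -0.28 (adjusted p = 0.0341) without YEXX-2A replicate 3. Egln1, which encodes the main oxygen sensor PHD2, had 21.8, 19.6 and 18.0 CPM with YEXX-2A, 22.1, 22.9 and 22.0 CPM with YWCH-4A and 22.3, 24.7 and 20.9 CPM with vehicle. The groups overlapped, with changes of -0.19 (adjusted p = 0.153, 95% interval -0.41 to 0.04) and -0.02 (adjusted p = 0.901, 95% interval -0.24 to 0.20). Per length of the deposited gene models, Egln3 made up 32.4, 32.6 and 40.0 percent of the summed Egln1 and Egln3 FPKM with YEXX-2A, 69.9, 68.0 and 69.1 percent with YWCH-4A and 34.4, 34.1 and 36.1 percent with vehicle.

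Mxi1, a repressor that competes with Myc for its partner Max, had 74.0, 77.1 and 75.7 CPM with YEXX-2A, 91.1, 95 and 85.6 CPM with YWCH-4A and 65.6, 56.0 and 70.6 CPM with vehicle. All YWCH-4A libraries were above the rest, and it rose with YWCH-4A (log2 fold change 0.50, SE 0.09, adjusted p = 0.00137). With YEXX-2A its change was 0.24 (adjusted p = 0.0514), or 0.31 (adjusted p = 0.0179) without vehicle replicate 3. Kdm3a, a histone demethylase that HIF induces, had 57.1, 66.5 and 57.2 CPM with YEXX-2A, 64.0, 64.4 and 61.7 CPM with YWCH-4A and 48.4, 29.1 and 50.3 CPM with vehicle. It rose with YEXX-2A (log2 fold change 0.50, SE 0.17, adjusted p = 0.0398) and also with YWCH-4A (log2 fold change 0.57, SE 0.17, adjusted p = 0.0234), and vehicle replicate 2 was far below the other vehicle libraries. Without that library the changes were 0.29 (adjusted p = 0.00505) and 0.36 (adjusted p = 0.000498). When each library's score entered the fit, the YEXX-2A change was 0.11 (adjusted p = 0.27). The YEXX-2A call was lost when any single library of either compound was left out (0.42 to 0.54, adjusted p from 0.0603 to 0.14), and the YWCH-4A call when any YWCH-4A library was (0.56 to 0.59, adjusted p from 0.0541 to 0.0695).

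Vegfa, the endothelial growth factor, had 179.8, 194 and 176 CPM with YEXX-2A, 161, 169 and 160.2 CPM with YWCH-4A and 216, 179 and 235 CPM with vehicle. YEXX-2A overlapped vehicle, and YWCH-4A lay below it. Vegfa fell with YWCH-4A (log2 fold change -0.36, SE 0.09, adjusted p = 0.0124), although on the log2(FPKM + 1) scale the change was -0.18 (adjusted p = 0.231). With YEXX-2A its change was -0.20 (adjusted p = 0.108), or -0.30 (adjusted p = 0.000443) without vehicle replicate 2. Adm, the vasodilator peptide adrenomedullin, had 33.6, 35.7 and 31.8 CPM with YEXX-2A, 43.2, 46.1 and 45.7 CPM with YWCH-4A and 39.9, 38.7 and 38.7 CPM with vehicle. YEXX-2A libraries lay below vehicle and YWCH-4A libraries above it. The fall with YEXX-2A was near the threshold (log2 fold change -0.21, SE 0.07, adjusted p = 0.0459) and held when vehicle replicate 2 was left out, but not when any other library was (-0.18 to -0.26, adjusted p from 0.054 to 0.124). The YWCH-4A value was 0.20 (adjusted p = 0.0613), or 0.19 (adjusted p = 0.0372) without vehicle replicate 2. On the log2(FPKM + 1) scale, where the median of all tested genes was 0.18, it was 0.36 (adjusted p = 0.00244).

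Ndrg1, a stress-response gene strongly induced by hypoxia in many cells, had 232, 239 and 247 CPM with YEXX-2A, 282, 289 and 292 CPM with YWCH-4A and 284, 340.3 and 303 CPM with vehicle. It fell with YEXX-2A (log2 fold change -0.37, SE 0.07, adjusted p = 0.00661), whereas YWCH-4A overlapped vehicle (-0.10, adjusted p = 0.301). Bnip3, which drives the removal of mitochondria, had 41.8, 49.98 and 48.1 CPM with YEXX-2A, 38.5, 39.9 and 41.4 CPM with YWCH-4A and 45.4, 35.6 and 55.0 CPM with vehicle. Both compounds overlapped vehicle, with changes of 0.04 (95% interval -0.26 to 0.34, adjusted p = 0.837) and -0.18 (95% interval -0.49 to 0.12, adjusted p = 0.331). Without vehicle replicate 2 the YWCH-4A value was -0.33 (adjusted p = 0.00681). Ankrd37, an ankyrin-repeat gene, had 5 to 16 counts per library and was not called, at -0.59 (adjusted p = 0.264) and -0.36 (adjusted p = 0.53).

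A longer list of known HIF targets outside the 34 genes also moved in both directions. Of 28 tested out of 30, 9 fell and 4 rose with YEXX-2A (median log2 fold change -0.19), and 14 fell and 4 rose with YWCH-4A (median -0.33). The share called was 46.4% with YEXX-2A, against 36.1% of all tested genes, and 64.3% with YWCH-4A, against 30.6% of all. Stc2, a secreted glycoprotein, had 29.2, 29.8 and 32.0 CPM with YEXX-2A, 8.07, 8.72 and 7.13 CPM with YWCH-4A and 41.8, 52.2 and 46.6 CPM with vehicle, and it fell with both (-0.63, adjusted p = 0.00368; -2.55, adjusted p = 6.74e-08). Hmox1, the heme-degrading oxygenase, fell with YEXX-2A (-0.46, adjusted p = 0.00611) and YWCH-4A (-1.14, adjusted p = 3.91e-06). The collagen-modifying enzymes Plod1 with YEXX-2A (-0.58, adjusted p = 0.00417) and P4ha1 with YWCH-4A (-1.29, adjusted p = 1.14e-06) were among the smallest p-values of the falls. Each also fell with the other compound, Plod1 with YWCH-4A (-0.79, adjusted p = 0.000177) and P4ha1 with YEXX-2A (-0.39, adjusted p = 0.00929). Glycogen branching enzyme Gbe1 rose with both (0.44, adjusted p = 0.0265; 1.36, adjusted p = 1.66e-05), as did the cyclin Ccng2 (0.49, adjusted p = 0.0121; 0.92, adjusted p = 0.000113). Angptl4, a lipase inhibitor, had 0.409, 0.254 and 0.148 CPM with YEXX-2A, 3.33, 3.68 and 3.38 CPM with YWCH-4A and 0.586, 0.554 and 0.437 CPM with vehicle. It had 9, 5 and 2 counts with YEXX-2A, 71, 71 and 54 with YWCH-4A and 9, 7 and 6 with vehicle, so it also passed the filter only through YWCH-4A and is given without a test, although it is 1 of the 4 counted as higher there.

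The compounds were then set against each other in the same fit, 1 pair with p-values adjusted over all 11473 genes. Their doses are not known, so the contrast compares the libraries as they were made. Of 17 glycolytic enzymes, 3 were higher and 1 was lower with YWCH-4A than with YEXX-2A, with a median difference of -0.01. Of 11 other HIF targets, 4 were higher and 2 lower, with a median of 0.17. Over all tested genes, 31.3% were called, 16.2% higher and 15.1% lower, and the median was 0.00.

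**Figure D4:**
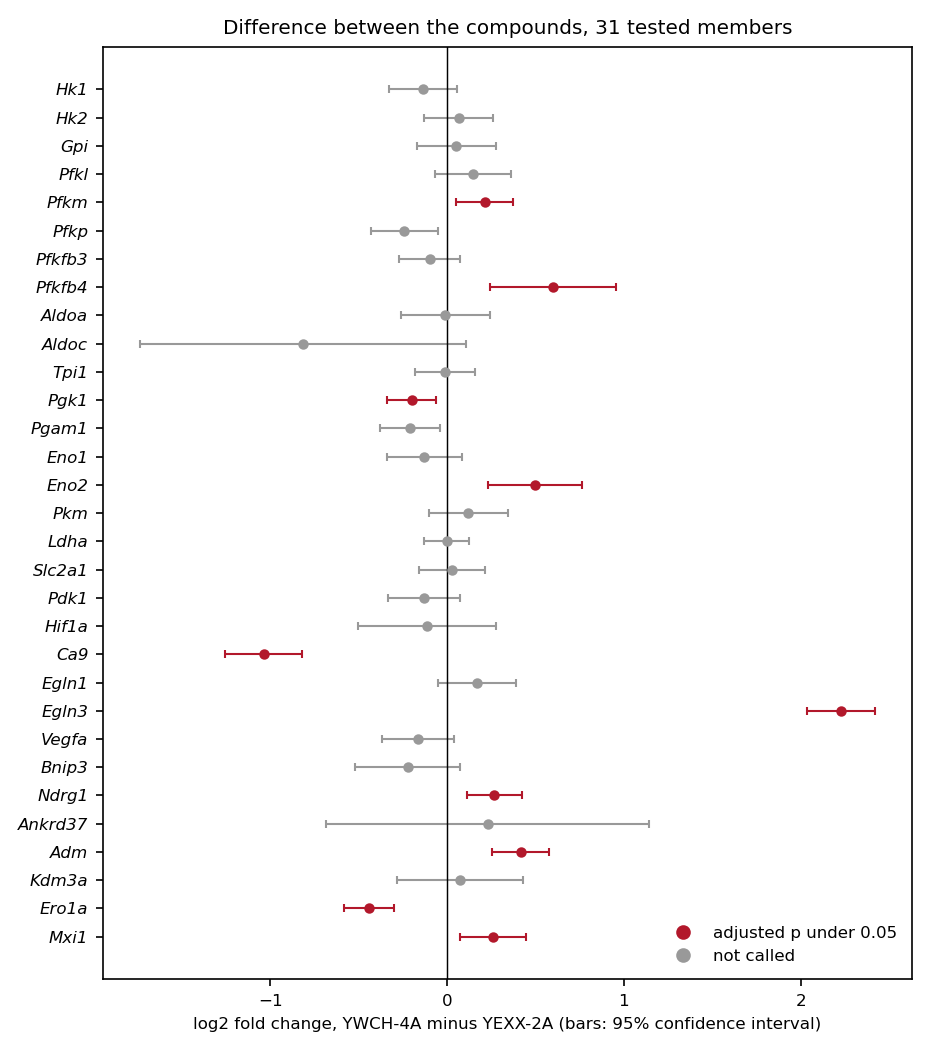
Log2 fold change of YWCH-4A minus YEXX-2A (horizontal axis; bars, 95% confidence interval) for the 31 tested genes, glycolytic enzymes above and HIF genes below, in red where the adjusted p was under 0.05. Egln3 lies far to the right at 2.23 and Ca9 to the left at -1.04, while most glycolytic enzymes sit near 0.

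Among the HIF targets, Egln3 was 4.69-fold higher with YWCH-4A than with YEXX-2A (log2 fold change 2.23, SE 0.09, adjusted p = 2.5e-08) and Ca9 was at 0.487 of its YEXX-2A level (log2 fold change -1.04, SE 0.10, adjusted p = 2.43e-05). Ero1a was lower with YWCH-4A (log2 fold change -0.44, SE 0.06, adjusted p = 0.000471) and Adm higher (log2 fold change 0.42, SE 0.07, adjusted p = 0.00177). These 4 calls held under all 19 alternatives. Ndrg1 (0.27, adjusted p = 0.016) and Mxi1 (0.26, adjusted p = 0.0394) were higher with YWCH-4A. The Ndrg1 call was lost without YEXX-2A replicate 1 or 2 or YWCH-4A replicate 2 or 3 (0.24 to 0.27, adjusted p from 0.0586 to 0.07). The Mxi1 call was lost without vehicle replicate 1 or any single library of either compound (0.23 to 0.30, adjusted p from 0.0532 to 0.128).

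Among the enzymes, Eno2 (log2 fold change 0.50, SE 0.12, adjusted p = 0.00976) and Pfkfb4 (log2 fold change 0.60, SE 0.16, adjusted p = 0.0174) were higher with YWCH-4A. Pfkm was slightly higher (0.21, adjusted p = 0.0461) and Pgk1 slightly lower (-0.20, adjusted p = 0.0329). Each of the 4 calls was lost when some library was left out. Eno2 gave 0.45 (adjusted p = 0.051) without YEXX-2A replicate 2. Pfkfb4 gave 0.51 to 0.61 (adjusted p from 0.054 to 0.0828) without YEXX-2A replicate 1 or 2 or YWCH-4A replicate 1. Pgk1 gave -0.18 to -0.21 (adjusted p from 0.0759 to 0.122) when any single library of either compound was left out. Pfkm gave 0.16 to 0.23 (adjusted p from 0.057 to 0.201) without YEXX-2A replicate 1 or 2, any single YWCH-4A library or vehicle replicate 1. Without vehicle replicate 2, whose spread entered the shared estimate, 5 enzymes were higher and 4 lower with YWCH-4A. That was 52.9% of the enzymes, near the 51.6% called over all genes tested in that fit. Most of the abundant enzymes were not called, and their intervals bound the difference. For Ldha the log2 difference was -0.00 (95% interval -0.13 to 0.12), for Tpi1 -0.01 (-0.18 to 0.16), for Aldoa -0.01 (-0.26 to 0.24) and for Slc2a1 0.03 (-0.16 to 0.22). The summed GAPDH models differed by -0.06 (SE 0.08, adjusted p = 0.612).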

How the data were processed

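Gene-level RNA-seq values of 9 rat NRK-49F libraries were analysed, 3 per group as the labels assign them. Per the labels' protocols, poly(A) RNA was captured on oligo(dT) beads and sequenced from NEBNext Ultra libraries. Per the submitters' processing notes, the authors' tools included RSEM, edgeR, DESeq2 and StringTie 1.3.1, without a stated role. Which aligner, build and annotation served is not given in the sources used here. Per the file headers, the deposited table gives, for every gene in each library, an FPKM and an estimated count made by the authors. Not all deposited counts were whole (8.87% of those above 0 were not). A second table of group values was not used.

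Estimated counts were rounded, genes with low counts were removed with filterByExpr (minimum count 10) and libraries were scaled with TMM, on which scale CPM are given. Depth of 13675868 to 21923715 counts per library sets the counting error of low genes. The robust quasi-likelihood test of edgeR 4.0.16 in R 4.3.3 was fitted to the 9 libraries together, with group as its only term. Two-sided p-values were adjusted over 11473 genes (Benjamini-Hochberg), and calls were made below an adjusted p of 0.05. Standard errors are the log2 fold change divided by the square root of F. The groups differed in spread but shared 1 estimate, so p-values of comparisons with vehicle may be understated, and those of YWCH-4A against YEXX-2A overstated. The test was also run on simulated counts, which gave each gene the same spread in every group and held no outlying library. That run cannot show how the test behaves with the unequal spread seen here.

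The members, lists and alternatives were chosen with earlier results of these data known. Members were named if called in a comparison or at a mean of at least 10 CPM, the rest were accounted for, and from each of 3 further pathway lists the 3 called genes with the smallest p-value were named per direction and comparison against vehicle. One gene that this rule selects is not reported here. Alternatives were DESeq2 size factors, no filter, a filter that asks for 1 CPM in 6 libraries, DESeq2 1.42.0, the voom test of limma 3.58.1 and its trend test on log2(FPKM + 1) and log2(FPKM + 0.1), the 6 libraries of 2 groups alone, the replicate number as a block, a library score covariate, and each library left out.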

Additional observations from a re-analysis of the deposited data

How the results depend on the processing

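Of 17 glycolytic enzymes, 12 of the 15 that fell with YEXX-2A and all 14 that fell with YWCH-4A were called under every one of the 19 alternatives that tested them; of the other HIF targets this held for 3 of 5 with YEXX-2A (Ca9, Ndrg1, Ero1a) and 4 of 6 with YWCH-4A (Ca9, Egln3, Ero1a, Mxi1). The share of all tested genes called under every alternative is not given here, so these counts have no background beside them. The stricter filter left Aldoc untested. The number of all genes called was 4145 with YEXX-2A against vehicle, and 1408 with only the 2 groups, 1931 with the replicate block and 2328 with the library score; leaving out 1 library gave 1044 to 5308. Called HIF targets there numbered 5, and 3 with only the 2 groups or with the block; leaving out 1 library gave 3 to 6. With YWCH-4A against vehicle, 3516 genes were called, and 5673 with the score. Between YWCH-4A and YEXX-2A, 3593 were called, and 5903 with only the 2 groups; leaving out 1 library gave 2225 without YEXX-2A replicate 2 to 6001 without vehicle replicate 2. The 4 enzymes called there became 2 without a filter, 9 with only the 2 groups, 2 with the block and 11 with the score. They numbered 0 to 9 with 1 library left out, 0 without YEXX-2A replicate 2. With the score, 64.7% of the enzymes and 44.6% of all genes were called, against 23.5% and 31.3% in the main fit. Over the settings other than leaving out 1 library, 2612 to 5903 of all genes were called. The counts of all genes without a filter and with the block are not given separately. The cause of these shifts was not tested. Deviations of same-numbered libraries from their group means correlated at -0.265 to 0.081. These values gave no sign that the numbers pair the samples, but 3 libraries per group cannot settle it.

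Values that changed sign belonged to changes that were not called. The p-values of fits with the score may be understated, because the score came from these same values. With YEXX-2A against vehicle, Hif1a became -0.27 with the score (adjusted p = 0.000338) and ran from -0.06 to 0.315 as 1 library was left out, lowest without vehicle replicate 2. Bnip3 became -0.21 with the score and ran from -0.11, without vehicle replicate 2, to 0.197, and was -0.02 without YEXX-2A replicate 2. With YWCH-4A, log2(FPKM + 1) and log2(FPKM + 0.1), scales on which the median of all genes was 0.18 and 0.21, against 0.03 for TMM, gave 0.079 and 0.080 for Pfkm, 0.152 and 0.156 for Egln1, 0.011 and 0.012 for Bnip3 and 0.075 and 0.076 for Ndrg1. Hif1a there became -0.11 with the score (adjusted p = 0.0342) and ran from -0.18, without vehicle replicate 2, to 0.199, and Egln1 became 0.015 with the score and 0.046 without vehicle replicate 2. Between the compounds, the score gave -0.015 for Hk2, -0.073 for Gpi, -0.008 for Pkm, 0.016 for Ldha, -0.067 for Slc2a1 and 0.16 for Hif1a (adjusted p = 0.00396). The FPKM scales gave 0.076 for Aldoa under both, 0.079 for Tpi1 under both, and 0.089 and 0.090 for Ldha, which was 0.005 without a filter, and 0.000 with the stricter filter or voom. As 1 library was left out, Aldoa ran from -0.036 to 0.010, Tpi1 from -0.038 to 0.027, Ldha from -0.029 to 0.033, Slc2a1 from -0.003 to 0.061 and Ankrd37 from -0.22 to 0.57. At 5 to 41 counts per library, depth limits Aldoc and Ankrd37.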

Other observations

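The deposited pathway annotation, used after the values above were seen, gives a wider set of glycolysis and gluconeogenesis genes. Of 37 tested genes so annotated outside the 34, 15 fell and 2 rose with YEXX-2A (median log2 fold change -0.22), and 11 fell and 6 rose with YWCH-4A (median -0.16). The share called was 45.9% in both comparisons, against 36.1% of all tested genes with YEXX-2A and 30.6% with YWCH-4A. Of 74 tested genes annotated to HIF-1 signalling outside the 34, 20 fell and 12 rose with YEXX-2A (median -0.01), and 13 fell and 16 rose with YWCH-4A (median 0.00). Those shares, 43.2% and 39.2%, were closer to the shares over all genes. These gene models include near-identical copies of some enzymes, so they are not independent of each other.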
